A study of Mus musculus with 10 samples.

Results

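Pfkl, Pfkm and Pfkp, which encode the 3 phosphofructokinase subunits, and Pfkfb1, Pfkfb2, Pfkfb3 and Pfkfb4, which encode the 4 bifunctional enzymes that regulate them, were followed through RNA-seq of inguinal white adipose tissue (iWAT). The genes were taken by name and not by a threshold on any value, but earlier results of these data were known when they were chosen. All 7 were found among the 51826 genes listed, of which 33120 have an exon length and can therefore hold exon reads. All 7 also passed the filter on low counts in every comparison below.

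The 10 libraries came from male C57BL/6 mice. In the F0 generation, 2 males fed a control diet (CD) and 2 fed a low-protein diet (LPD) from weaning were sampled at 10 to 12 weeks of age. In the F1 generation, 3 sons of CD-fed fathers and 3 sons of LPD-fed fathers (pLPD offspring) were sampled at 5 weeks. The F1 mice were never given the LPD themselves and their mothers ate the CD, so the diet that differed between the F1 groups was that of the father. The sons had different mothers, and the libraries of the F1 groups also differed, as given below. All mice descended from animals kept on the CD. The tissue is a whole fat pad and holds other cell types besides adipocytes.

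Phosphofructokinase (PFK) commits glucose to glycolysis by converting fructose 6-phosphate to fructose 1,6-bisphosphate, and it works as a tetramer built from liver-type (PFKL), muscle-type (PFKM) and platelet-type (PFKP) subunits. Its strongest activator, fructose 2,6-bisphosphate, is made and destroyed by the PFKFB enzymes, each of which carries a kinase and an opposing phosphatase in one chain. PFKFB3 has the highest ratio of kinase to phosphatase activity, PFKFB1 is the liver and muscle form, PFKFB2 the heart form, and PFKFB4 was first described in testis. In adipocytes glycolysis supplies the glycerol backbone of triglycerides and carbon for fatty acid synthesis.

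On mm10 the subunit genes are Pfkl (ENSMUSG00000020277, chr10:77986947-78010083, minus strand), Pfkm (ENSMUSG00000033065, chr15:98092589-98132447, plus strand) and Pfkp (ENSMUSG00000021196, chr13:6579768-6648777, minus strand). The regulators are Pfkfb1 (ENSMUSG00000025271, chrX:150588229-150643878, plus strand), Pfkfb2 (ENSMUSG00000026409, chr1:130689182-130729253, minus strand), Pfkfb3 (ENSMUSG00000026773, chr2:11471433-11554077, minus strand) and Pfkfb4 (ENSMUSG00000025648, chr9:108991778-109032228, plus strand). Exon lengths run from 2957 bp in Pfkm to 13401 bp in Pfkp.

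RefSeq (GRCm38.p6) gives 16 promoter windows for the 7 genes, each from 250 bases before to 50 bases after a transcription start. The windows were searched on both strands for CACGTG, the E-box core that carbohydrate-responsive factors can bind, and for GGGCGG, the GC box. The first occurs in 7.15% and the second in 35.7% of the 32851 promoter windows of the same table. The only Pfkl window and the Pfkfb3 window with an E-box are shown, because Pfkl was the gene that differed with the paternal diet and Pfkfb3 the regulator with the most reads. Capitals mark GGGCGG in the Pfkl window (chr10:78009758-78010057, minus strand) and CACGTG in the Pfkfb3 window (chr2:11502041-11502340, minus strand).
Pfkl: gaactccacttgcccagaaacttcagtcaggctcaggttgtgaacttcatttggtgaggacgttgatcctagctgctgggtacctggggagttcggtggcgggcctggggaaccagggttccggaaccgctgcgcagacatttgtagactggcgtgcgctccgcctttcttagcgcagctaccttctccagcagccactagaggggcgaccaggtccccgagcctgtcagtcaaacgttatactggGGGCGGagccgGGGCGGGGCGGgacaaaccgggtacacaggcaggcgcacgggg
Pfkfb3: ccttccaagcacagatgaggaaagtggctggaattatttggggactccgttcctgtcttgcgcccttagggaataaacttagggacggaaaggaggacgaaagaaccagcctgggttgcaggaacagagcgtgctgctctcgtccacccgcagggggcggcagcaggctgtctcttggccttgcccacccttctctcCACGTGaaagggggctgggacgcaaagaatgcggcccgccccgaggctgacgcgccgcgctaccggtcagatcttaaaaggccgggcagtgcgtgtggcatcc
The Pfkl window held 3 GC boxes and no CACGTG. The Pfkfb3 window shown also held 2 GC boxes, left in lower case, and the other Pfkfb3 window held 3. Among the other genes, GC boxes lay in a window of Pfkp (4), Pfkfb4 (4), Pfkfb1 (2) and Pfkfb2 (2), and in none of Pfkm. Across the family, 3 of the 16 windows held CACGTG, 1 each for Pfkm, Pfkfb2 and Pfkfb3. These are matches of letters and not measured sites, and counts per gene do not tell which start was used.

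Exon reads summed to between 6351075 and 10044546 per library, so that 3 reads correspond to 0.299 to 0.472 CPM (reads of a gene scaled to the exon reads of its library), a floor for counting error only. Every gene followed here lay far above it, the lowest being Pfkfb2 with 100 exon reads in 1 library. Introns held 36.0% to 37.5% of the reads of protein-coding genes in sons of CD fathers, against 40.7% to 48.4% in pLPD offspring, and replicate 1 of the pLPD offspring stood apart at 48.4%. Mitochondrial rRNA moved the same way in F1, from 9.29% to 10.5% of reads on genes with CD fathers and from 13.5% to 18.2% with LPD fathers, where replicate 1 was again the highest. In F0 it took 9.59% to 9.85% on the CD and 10.9% to 12.4% on the LPD. The F1 results for Pfkl are also given without replicate 1 of the pLPD offspring. CPM values below are on the TMM scale of all 10 libraries and are given in replicate order.

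Levels can be compared between genes only per exon length, in RPKM. On that scale Pfkfb3 was the most abundant of the 7 in 3 of the 4 groups, at 33.2 ± 0.122 (SD, n = 2) in CD-fed F0 males, 42.7 ± 9.77 (n = 2) in LPD-fed males and 33.2 ± 0.815 (n = 3) in pLPD offspring. In sons of CD fathers, Pfkl was first at 44.4 ± 1.66 RPKM (SD, n = 3) and Pfkfb3 second at 27.1 ± 7.77 (n = 3), with ranges that did not overlap. Pfkl stood at 13.9 ± 1.29 RPKM (n = 2) in CD-fed F0 males, where it could not be separated from Pfkm at 14.2 ± 3.65 (n = 2). It stood second to Pfkfb3 in LPD-fed males at 18.3 ± 1.74 and in pLPD offspring at 23.7 ± 2.37. Pfkfb2 was the least abundant in all 4 groups, at 1.15 to 1.57 RPKM, below Pfkfb4 at 1.80 to 2.84. Pfkfb1 and Pfkp fell between these and the leading genes, and their ranges overlapped in sons of CD fathers (4.17 ± 0.337 and 4.27 ± 0.259). Only 20.0% to 29.8% of the exon reads of Pfkfb2 matched a single place in the genome, whereas 98.6% or more did for each of the other 6 genes. Pfkfb2 shares 26618 bp of the same strand with the gene model Gm29427, which held 0 to 1 exon reads, so the level of Pfkfb2 is uncertain.

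**Figure D1:**
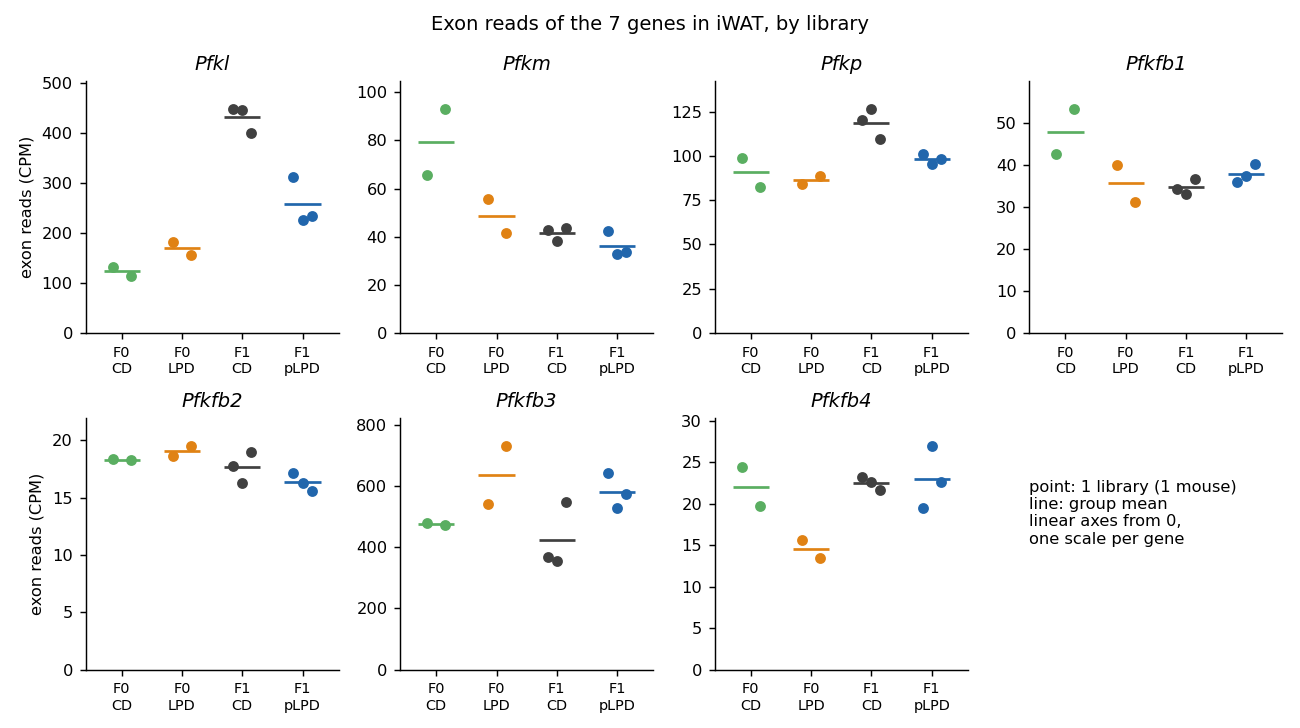
Exon reads in CPM (vertical axes, linear from 0, 1 scale per gene) of the 7 genes in the 4 groups (horizontal axes), where each point is 1 library and each line a group mean. Pfkl reaches 400.4 to 447.3 CPM in sons of CD fathers and 312.0 CPM or less in every other library.

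The first comparison asked how the diet of the father altered these genes in the sons. Pfkl, the liver-type subunit, was expressed at 447.3, 445.2 and 400.4 CPM in sons of CD fathers and at 312.0, 226.2 and 234.4 CPM in pLPD offspring. All 3 pLPD offspring lay below all 3 sons of CD fathers, and the mean was 40.2% lower (431 ± 26.5 against 258 ± 47.4 CPM, SD, n = 3 each). The log2 fold change was −0.73 (SE 0.12, 95% interval −1.001 to −0.468, edgeR adjusted p = 0.0204 over all genes tested). Pfkl was the only 1 of the 7 genes past the threshold, where 1.17% of the 14049 genes tested passed it (1.02% lower and 0.142% higher). Without replicate 1 of the pLPD offspring the log2 fold change was −0.89 (edgeR adjusted p = 0.00601). With the intron share of each library as a covariate it was −1.08 (edgeR adjusted p = 0.0285). That share, over genes with an exon length, was 37.7% to 39.4% with CD fathers and 41.5% to 48.5% in pLPD offspring. The groups did not overlap in it, so this fit cannot separate it from the paternal diet. The part of mitochondrial rRNA was not tested. The call was lost when replicate 1 or 2 of sons of CD fathers (edgeR adjusted p = 0.105 and 0.111) or replicate 2 or 3 of the pLPD offspring (adjusted p = 0.123 and 0.0536) was left out, with log2 fold changes between −0.71 and −0.65. In a bulk tissue, fewer cells of a type and less RNA per cell cannot be told apart.

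Pfkp, the platelet-type subunit, was measured at 120.3, 126.5 and 109.4 CPM in sons of CD fathers and at 100.9, 95.3 and 98.2 CPM in pLPD offspring. The groups did not overlap and pLPD offspring were the lower, but the log2 fold change of −0.27 (SE 0.09) did not pass (edgeR adjusted p = 0.163). Pfkl and Pfkp were 2 of 7 genes with separate groups in this comparison, against 20.1% of all genes tested, and for both pLPD offspring lay below (10.9% of genes tested). Pfkm, the muscle-type subunit, showed 42.8, 38.1 and 43.4 CPM against 42.3, 32.8 and 33.7 CPM, with overlapping groups and a log2 fold change of −0.18 (95% interval −0.44 to 0.08, edgeR adjusted p = 0.507).

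None of the 4 regulators passed the test with edgeR or with DESeq2, and Pfkfb3 alone had an unadjusted p under 0.05. At that unadjusted p, 923 genes lay higher and 1231 lower of the 14049 tested with edgeR. Pfkfb3, the PFKFB enzyme with the strongest kinase, was at 368, 355 and 548 CPM in sons of CD fathers and at 642, 526 and 574 CPM in pLPD offspring. Replicate 3 of sons of CD fathers lay within the range of the pLPD offspring, and the log2 fold change was 0.46 (SE 0.15, 95% interval 0.13 to 0.80, edgeR adjusted p = 0.177). Without that library it was 0.69 (adjusted p = 0.00479), so the position of Pfkfb3 depended on 1 mouse. Pfkfb1 (log2 fold change 0.13, 95% interval −0.09 to 0.35), Pfkfb2 (−0.10, −0.40 to 0.19) and Pfkfb4 (0.05, −0.26 to 0.36) had overlapping groups and intervals that included 0, with edgeR adjusted p-values of 0.580, 0.768 and 0.914.

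The second comparison asked the same of the fathers' generation, where the mice ate the diets themselves. Pfkl was at 132.8 and 114.0 CPM in CD-fed males and at 182.4 and 155.3 CPM in LPD-fed males, a log2 fold change of 0.46 (SE 0.11, 95% interval 0.20 to 0.71, edgeR adjusted p = 0.0815). Both LPD-fed males lay above both CD-fed males, the opposite order to that in F1, but the difference did not pass the threshold. Pfkm went the other way, from 65.7 and 93.0 CPM in CD-fed males to 55.7 and 41.4 CPM in LPD-fed males, a log2 fold change of −0.71 (SE 0.18, edgeR adjusted p = 0.0837). It passed without replicate 1 of the CD-fed males (−0.93, adjusted p = 0.0254) or replicate 1 of the LPD-fed males (−0.94, 0.0493), and shrank to −0.43 and −0.51 without replicate 2 of the CD-fed or of the LPD-fed males (0.316 and 0.350). Pfkp overlapped between the diets, at 99.1 and 82.3 CPM against 84.0 and 88.8 CPM (log2 fold change −0.07, edgeR adjusted p = 0.824).

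Of the regulators, Pfkfb4 was at 24.4 and 19.7 CPM in CD-fed males and at 15.7 and 13.5 CPM in LPD-fed males (log2 fold change −0.59, SE 0.16, edgeR adjusted p = 0.0955). Pfkfb1 was at 42.5 and 53.2 CPM against 40.0 and 31.1 CPM (log2 fold change −0.43, SE 0.15, edgeR adjusted p = 0.192). Pfkfb3 was higher on the LPD, at 480 and 473 CPM against 542 and 731 CPM (log2 fold change 0.42, SE 0.15, edgeR adjusted p = 0.198), with a log2 fold change of 0.62 without replicate 1 of the LPD-fed males (adjusted p = 0.0192) and of 0.19 without replicate 2 (0.579). The groups of each of these 3 genes were separate, and those of Pfkfb2 were separate by less than 1 CPM (18.4 and 18.3 against 18.6 and 19.5 CPM, log2 fold change 0.06, edgeR adjusted p = 0.888). None of the 7 genes passed the edgeR test in F0, where 2.5% of 14581 genes did (1.18% higher and 1.32% lower). At an unadjusted p under 0.05, 2 of the 7 lay higher with the LPD and 3 lay lower, against 1098 higher and 1196 lower of the 14581 genes. DESeq2 called 1 of the 7, Pfkm (adjusted p = 0.0344), and over all genes 179 higher and 163 lower of 16075. Groups were separate for 6 of the 7 genes, but with 2 mice a group this held for 46.5% of all genes tested.

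**Figure D2:**
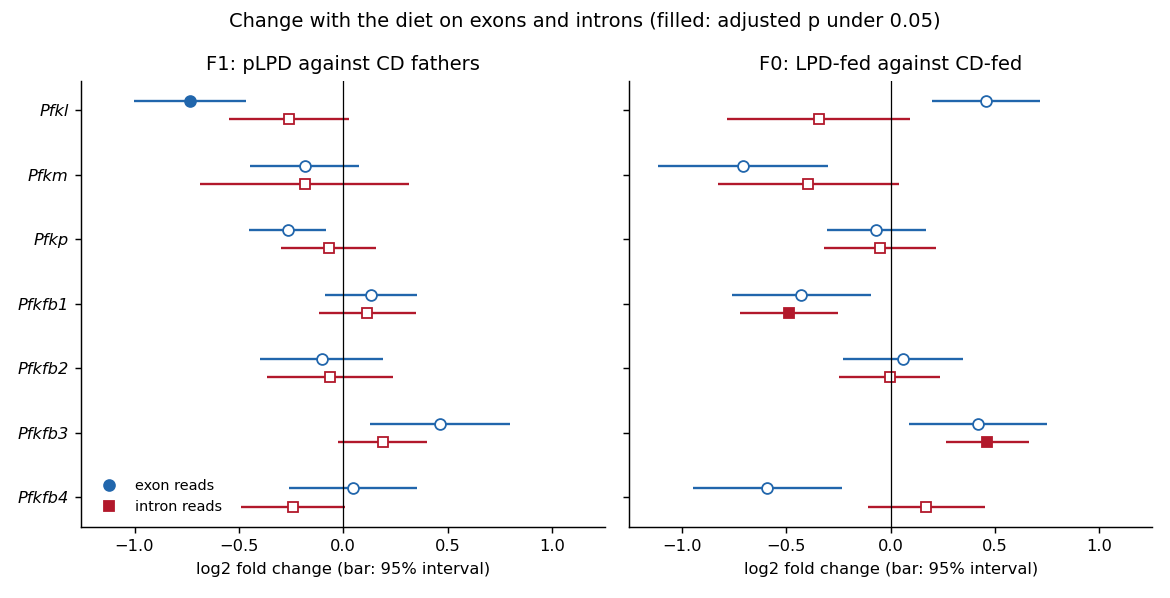
Log2 fold changes with the diet (horizontal axes; points with 95% intervals) of the 7 genes on exon reads (blue circles) and intron reads (red squares), in F1 on the left and F0 on the right, filled where the edgeR adjusted p was under 0.05. Pfkl on exons in F1 and Pfkfb1 and Pfkfb3 on introns in F0 are the filled points.

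Whether the diet acted alike in the 2 generations was tested as an interaction in 1 fit of all libraries. For Pfkl the effect in F1 minus that in F0 was −1.20 on the log2 scale (SE 0.19, 95% interval −1.62 to −0.78, edgeR adjusted p = 0.0141), and 1.25% of 15111 genes tested passed (0.893% with a negative difference). It was the only 1 of the 7 genes to do so. Without replicate 1 of the pLPD offspring the difference was −1.35 (edgeR adjusted p = 0.00341), and leaving out replicate 2 of the CD-fed F0 males ended the call (−1.09, adjusted p = 0.104). Pfkfb3 gave 0.04 (95% interval −0.50 to 0.58), so a difference between generations of more than 0.58 log2 units in either direction lay outside its interval. The differences for Pfkfb4 (0.63, 95% interval 0.16 to 1.10), Pfkfb1 (0.55, 0.16 to 0.95) and Pfkm (0.52, 0.01 to 1.02) did not pass after adjustment (edgeR adjusted p = 0.214, 0.191 and 0.384), nor did those of Pfkp (−0.21) and Pfkfb2 (−0.17).

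Reads on introns come largely from unspliced RNA and were counted apart from those on exons. They made up 4.50% to 13.0% of the reads on Pfkl and 66.2% to 73.6% of those on Pfkfb1, with the other 5 genes between. In F1, intron reads of Pfkl were at 32.6, 34.7 and 32.5 CPM in sons of CD fathers and at 24.2, 29.5 and 30.0 CPM in pLPD offspring. The groups were separate in the same order as on exons, but the log2 fold change was −0.26 (SE 0.13, 95% interval −0.55 to 0.03, edgeR adjusted p = 0.417), and −0.16 without replicate 1 of the pLPD offspring (adjusted p = 0.733). Pfkfb4 was at 40.1, 38.3 and 39.6 CPM against 34.5, 33.6 and 31.7 CPM on introns (log2 fold change −0.24, edgeR adjusted p = 0.380), also with separate groups. The 2 genes with separate groups compare with 18.9% of all genes tested on introns, and with 9.71% where pLPD offspring lay below. Intron changes of Pfkfb3 (0.19, 95% interval −0.02 to 0.40), Pfkfb1 (0.12, −0.12 to 0.35) and Pfkp (−0.07, −0.30 to 0.16) did not pass either. None of the 7 genes was called by edgeR on introns in F1, none had an unadjusted p under 0.05, DESeq2 called none, and 0.424% of 13456 genes passed.

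In F0, the intron reads of 2 regulators passed the test. Pfkfb3 rose from 391 and 405 CPM in CD-fed males to 505 and 586 CPM in LPD-fed males (log2 fold change 0.46, SE 0.09, edgeR adjusted p = 0.0207). Pfkfb1 fell from 153 and 188 CPM to 119 and 123 CPM (log2 fold change −0.49, SE 0.10, edgeR adjusted p = 0.0348). For both genes the change on introns had the direction and about the size of the one on exons, which had not passed. They were 2 of 7 genes called where 3.48% of 14334 genes were (1.36% higher and 2.12% lower). The Pfkfb1 call was lost without replicate 2 of the CD-fed males (edgeR adjusted p = 0.102) or either LPD-fed male (0.139 and 0.108), and the Pfkfb3 call without replicate 2 of the LPD-fed males (0.154). Intron reads of Pfkl were at 29.3 and 22.5 CPM against 23.6 and 16.7 CPM, overlapping, with a log2 fold change of −0.35 (95% interval −0.78 to 0.09, edgeR adjusted p = 0.464). Groups were separate for 4 of the 7 genes, against 45.7% of all genes tested on introns.

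Exon and intron changes of the same mice were then compared directly. In F0 the change of Pfkl on exons exceeded that on introns by 0.80 log2 units (SE 0.15, edgeR adjusted p = 0.000368), the exons being higher and the introns lower on the LPD. For Pfkfb4 the exon change fell short of the intron change by 0.76 (log2 difference −0.76, SE 0.19, edgeR adjusted p = 0.0124), with introns at 29.7 and 27.5 CPM in CD-fed males and 30.4 and 33.8 CPM in LPD-fed males. Pfkl passed without any 1 of the 4 libraries (edgeR adjusted p of 0.00871 or less), and Pfkfb4 lost its call without replicate 1 of the CD-fed males (adjusted p = 0.110) or replicate 2 of the LPD-fed males (0.234). The 2 genes called compare with 3.92% of 12694 genes (2.51% with the larger value on exons and 1.42% with the smaller). In F1 the difference for Pfkl was −0.48 (SE 0.16, 95% interval −0.82 to −0.14, unadjusted p = 0.00766 and edgeR adjusted p = 0.456), or −0.73 without replicate 1 of the pLPD offspring (adjusted p = 0.0587). For Pfkfb3 it was 0.30 (adjusted p = 0.584) and for Pfkfb4 0.29 (adjusted p = 0.775). No gene of the 7 passed in F1 by edgeR, where 0.116% of 12035 genes did. At an unadjusted p under 0.05 there were 2 of the 7, against 493 genes with the larger value on exons and 407 with the smaller. The intron share of whole libraries was higher in pLPD offspring, and its part in these values was not tested.

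**Figure D3:**
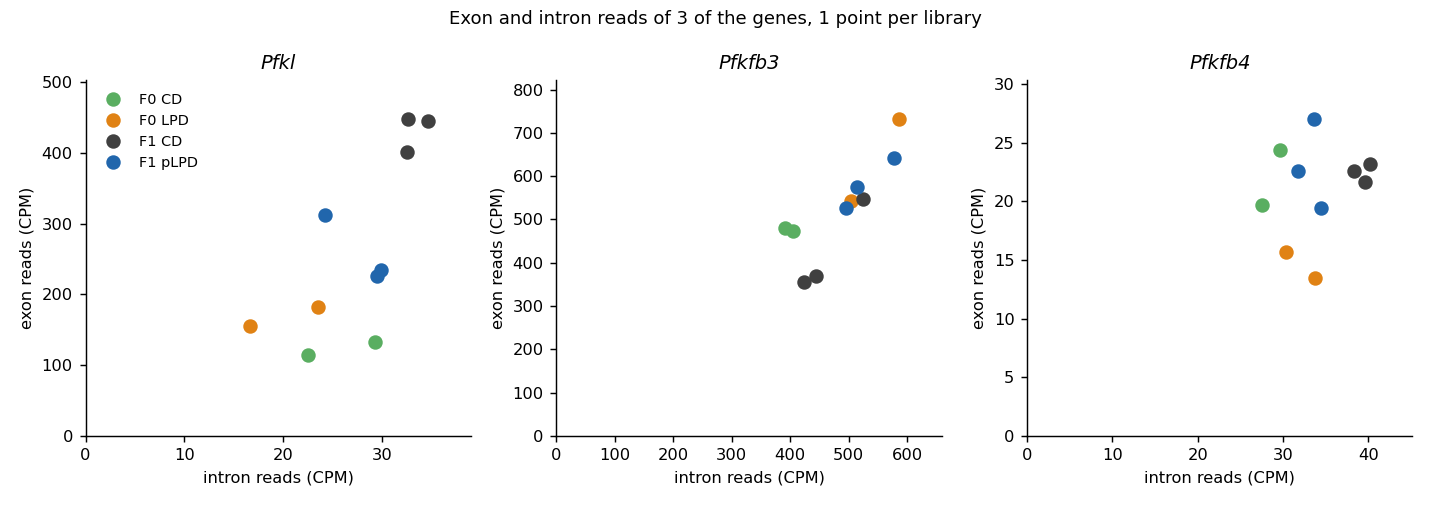
Exon reads (vertical axes, CPM) against intron reads (horizontal axes, CPM) of Pfkl, Pfkfb3 and Pfkfb4, 1 point per library, coloured by group. Exon reads of Pfkl spread from 114.0 to 447.3 CPM over intron reads of 16.7 to 34.7 CPM. Those of Pfkfb3 spread from 355 to 731 CPM over intron reads of 391 to 586 CPM. The CD-fed F0 males have the lowest intron reads of Pfkfb3 but not its lowest exon reads.

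The make-up of the subunit RNA was described by the share of each subunit gene in their summed RPKM, which does not depend on the scaling of libraries. These are shares of RNA in the whole fat pad. Subunit proteins and tetramers were not measured, and the subunit RNAs need not lie in the same cells. In F1, Pfkl held 80.1% ± 1.06 (SD, n = 3) in sons of CD fathers and 73.6% ± 1.52 (n = 3) in pLPD offspring. Pfkm held 12.2% ± 1.29 and 16.4% ± 0.276, and Pfkp 7.69% ± 0.287 and 9.94% ± 1.25. The difference for Pfkl was −6.48 percentage points, or −7.35 without replicate 1 of the pLPD offspring. As shares of reads with no division by exon length, the differences were −7.43 points for Pfkl, 2.21 for Pfkm (4.23 per length) and 5.21 for Pfkp (2.24 per length). All 3 shares were separate between the groups, with an exact two-sided permutation p = 0.1, the smallest that 3 mice against 3 can give. The shares add up to a fixed total, so they are not 3 independent results. In F0, Pfkl and Pfkm held nearly equal shares in CD-fed males, 44.2% ± 6.80 (SD, n = 2) and 44.5% ± 8.80, whereas Pfkl led in LPD-fed males with 61.3% ± 0.595 against 27.7% ± 2.38 for Pfkm. The share of Pfkp was 11.3% ± 2.00 and 11.0% ± 1.79. The exact permutation p was 0.333 for Pfkl and Pfkm in F0, the smallest that 2 mice against 2 allow.

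The direction of the Pfkl share thus differed between the generations, down by 6.48 percentage points in F1 and up by 17.1 points in F0. The difference between the generations was −23.6 points. Permuting the diets within each generation gave an exact p = 0.0167, the smallest that the 120 arrangements can give, and 0.0583 after adjustment over the 7 shares of both families. This permutation takes the diet to have no effect in either generation, so it does not test whether the effects of the generations are equal. The Pfkm share mirrored it, with a difference of 21.1 points and the same exact p-values. The shares of a library add up to a fixed total, so the Pfkm value is not a result separate from that of Pfkl.

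Pfkfb3 dominated the regulators throughout. Its share of their summed RPKM was 76.2% ± 3.74 (SD, n = 3) in sons of CD fathers and 81.2% ± 2.41 (n = 3) in pLPD offspring, with overlapping groups and an exact permutation p = 0.2. In F0 it was 75.6% ± 1.16 (n = 2) in CD-fed and 84.1% ± 4.38 (n = 2) in LPD-fed males, separate groups with an exact permutation p = 0.333. Pfkfb1 was second with 9.12% to 14.3%, Pfkfb4 next with 3.65% to 7.74% and Pfkfb2 last with 2.81% to 4.0% as group means.

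**Figure D4:**
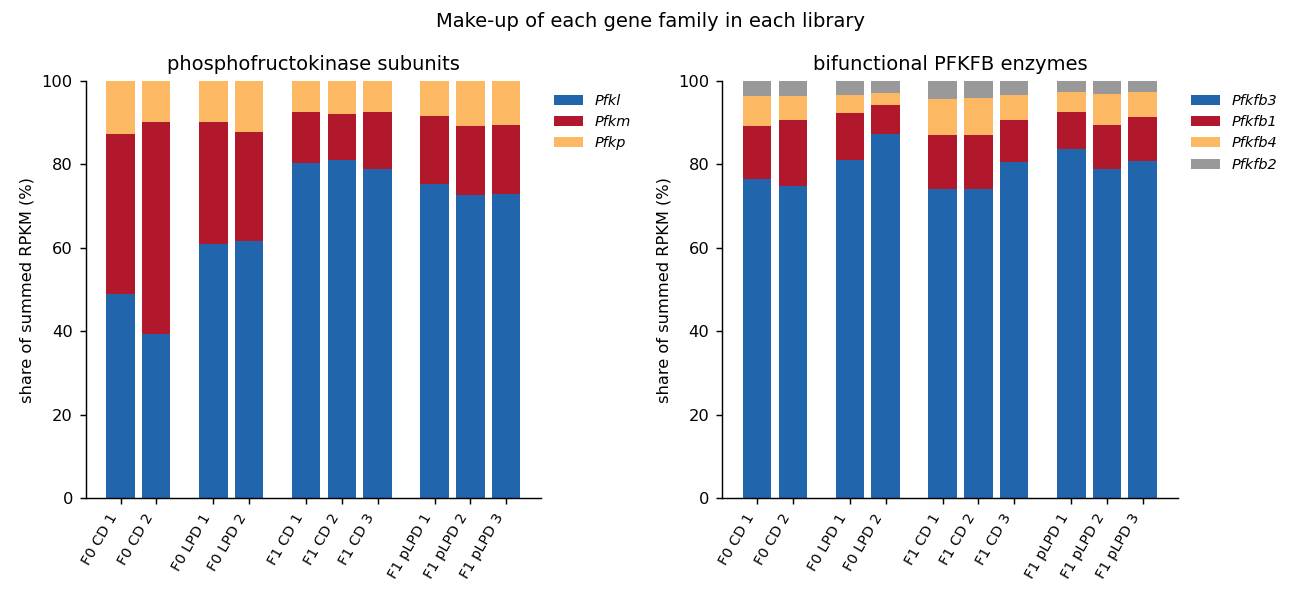
Share of summed RPKM (vertical axes, percent) held by each phosphofructokinase subunit gene (left) and each PFKFB gene (right) in every library, named by group and replicate. Pfkl holds 78.9% to 81.0% in sons of CD fathers and shares the subunit RNA with Pfkm in CD-fed F0 males, while Pfkfb3 holds 74.0% to 87.2% of the regulators.

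The 5-week-old sons of CD fathers, called the offspring in this paragraph, were set against the adult CD-fed F0 males. Pfkl was 3.49-fold higher in the offspring (431 against 123 CPM, log2 fold change 1.81, SE 0.15, edgeR adjusted p = 1.16e-05), while its intron reads differed by 1.28-fold. Pfkp was also higher (log2 fold change 0.39, edgeR adjusted p = 0.0147), a call that limma on log2(RPKM + 0.1) and log2(RPKM + 1) did not make (0.26 and 0.21, adjusted p = 0.164 and 0.153). Pfkm was 1.92-fold higher in the adults (log2 fold change −0.94, edgeR adjusted p = 0.00145), and Pfkfb1 was 1.38-fold higher in them (−0.47, edgeR adjusted p = 0.0222). Pfkfb3 (−0.17, adjusted p = 0.546) and Pfkfb4 (0.03, adjusted p = 0.912) did not pass, nor did Pfkfb2. With 4 of 7 genes called, the background was 18.9% of 15111 genes, 10.1% higher and 8.78% lower in the offspring. Age and generation cannot be told apart here. The calls of Pfkl and Pfkm held without any 1 of the 10 libraries, while both Pfkp and Pfkfb1 lost theirs without replicate 2 of the CD-fed F0 males (edgeR adjusted p = 0.238 and 0.310) or replicate 2 of sons of CD fathers (0.0518 and 0.0664), and Pfkfb1 also without replicate 1 of the latter (0.0618).

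The other genes of the pathway were listed by role. Of 16 other glycolytic enzymes tested in F1, 3 were down-regulated in pLPD offspring and none up-regulated, 7 were lower and 0 higher at an unadjusted p under 0.05, 15 had a negative log2 fold change, and the median was −0.24, against 0.01 over all genes. The 3 were Gpi1, which makes the substrate of PFK (log2 fold change −0.69, SE 0.10, edgeR adjusted p = 0.0115), Pkm, a pyruvate kinase (−0.66, SE 0.12, adjusted p = 0.0338), and Eno1, an enolase (−0.53, SE 0.10, adjusted p = 0.0371). The value of Gpi1, the step just before PFK, was close to the −0.73 of Pfkl. In F0 none of the 16 enzymes was called by edgeR, with 2 higher and 3 lower at an unadjusted p under 0.05, 7 positive and 9 negative values and a median of −0.09. Gpi1 was at 0.11 in F0 (adjusted p = 0.743), and for it the difference between the generations passed as it did for Pfkl (−0.81, SE 0.16, edgeR adjusted p = 0.0344).

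The next list held kinases and phosphatase subunits taken to act on PFKFB proteins. Of 13 tested in F1, 1 was down-regulated, the PP2A regulatory subunit Ppp2r5b (log2 fold change −0.98, SE 0.20, edgeR adjusted p = 0.0448). The authors had already reported lower Ppp2r5b RNA in pLPD offspring, and whether this subunit acts on PFKFB proteins was not tested. In F0 none of 14 passed, with 1 higher and 2 lower at an unadjusted p under 0.05. The opposing phosphatases Fbp2 and Tigar did not pass in either generation (log2 fold changes of Fbp2 −0.37 in F1 and 1.22 in F0, edgeR adjusted p = 0.733 and 0.109), and Fbp1 was not tested for want of reads. Of 8 transcription factors known to act on these genes none was called by edgeR in F1, with 1 lower at an unadjusted p under 0.05, and none in F0, with 3 lower. The 1 in F1 was Mlxipl, which encodes ChREBP (log2 fold change −0.55, edgeR adjusted p = 0.0703), which was also among the 3 in F0 (−0.59, adjusted p = 0.0756). Among 8 target genes of ChREBP 1 was down-regulated in F1, the fatty acid elongase Elovl6 (−1.40, edgeR adjusted p = 0.00868), with a median of −0.41. At an unadjusted p under 0.05, 7 of them were lower in F1 and 1 was higher, Txnip, an inhibitor of glucose uptake (0.37, adjusted p = 0.124). None passed in F0, with 2 lower at an unadjusted p under 0.05. No target gene of the hypoxia factor HIF of 6 tested passed in F1 or F0 by edgeR, with 0 and 2 at an unadjusted p under 0.05. The counts for these lists rest on edgeR alone.

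Markers of other cell types were read in the same libraries. Pfkm is the subunit of skeletal muscle, and the summed CPM of 12 muscle markers ranged from 1817 to 2835 in CD-fed F0 males and from 853 to 1178 in LPD-fed males, with 9 of the 12 called lower by edgeR and all 12 negative. It ranged from 109 to 209 in sons of CD fathers and from 52.3 to 199 in pLPD offspring. Pfkm was thus highest in the 2 libraries with the most muscle transcripts, and the part of muscle in its level was not tested. All 12 markers were lower in sons of CD fathers than in CD-fed F0 males, beside the lower Pfkm.

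Markers of brown or beige adipocytes summed to 135 to 258 CPM in CD-fed and 620 to 722 CPM in LPD-fed F0 males, with 4 of 6 called higher, in the direction of Pfkl. In F1 they summed to 1123 to 1687 CPM in sons of CD fathers and to 710 to 2210 CPM in pLPD offspring. There 1 of 6 was called higher, Ppargc1a, and none lower, while 4 of the 6 had a negative log2 fold change and the median was −0.24. In sons of CD fathers against CD-fed F0 males, 4 of the 6 were called higher and none lower, beside the higher Pfkl. Replicate 1 of the pLPD offspring had both the highest sum of these markers (2210 CPM) and the highest Pfkl of its group (312.0 CPM). Replicate 1 was also the higher in both within each F0 group. In sons of CD fathers the order was the other way, as replicate 3 had the highest sum (1687 CPM) and the lowest Pfkl (400.4 CPM). The part of brown or beige adipocytes in the level of Pfkl was not tested. Adipocyte markers themselves, from Adipoq to Plin1, were present in every library, as in adipose tissue, at a summed 11280 to 18850 CPM, and none of 8 was called in F1.

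Macrophage markers summed to 952 to 1167 CPM in sons of CD fathers and to 671 to 756 CPM in pLPD offspring, with 4 of 6 called lower beside Pfkl. Fibroblast or progenitor markers summed to 6340 to 11310 and 4441 to 5298 CPM, with none of 5 called and 4 lower at an unadjusted p under 0.05. Epithelial markers summed to 10.5 to 14.9 and 1.53 to 4.88 CPM, with 2 of 4 tested called lower, the keratins Krt8 and Krt18 of simple epithelia. Lymphocyte, endothelial, erythroid, platelet and liver markers had no call in F1. In F0, 1 gene each was called among the lymphocyte (higher), adipocyte, macrophage, fibroblast and liver markers (lower), and none among the endothelial, epithelial, erythroid and platelet markers. The part of any of these cells in the values of the 7 genes was not tested.

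**Figure D5:**
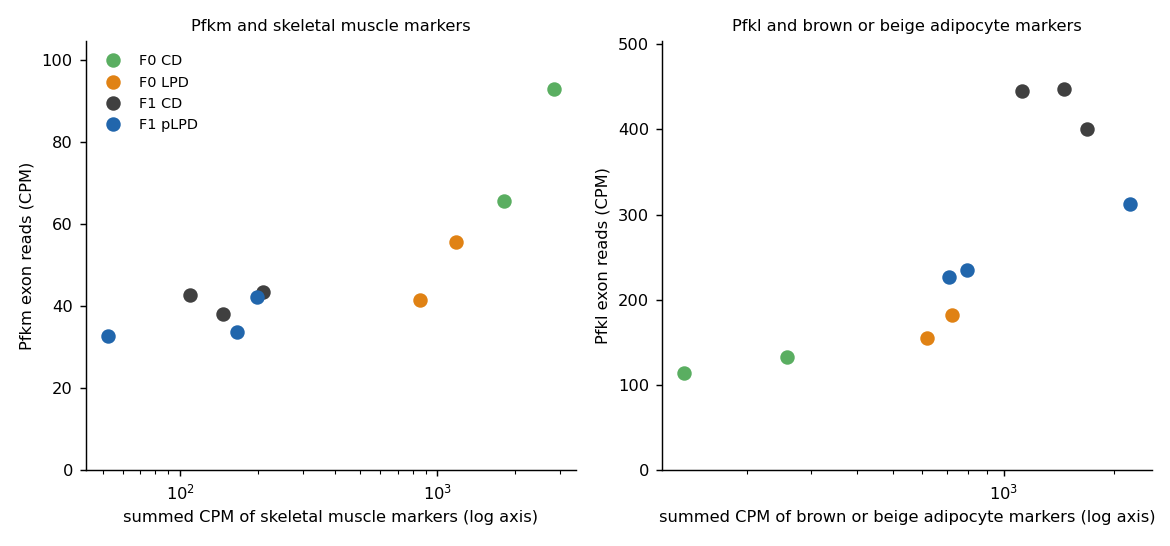
Exon reads (vertical axes, CPM, linear from 0) of Pfkm against the summed CPM of skeletal muscle markers (left) and of Pfkl against that of brown or beige adipocyte markers (right; horizontal log axes), 1 point per library. The 2 CD-fed F0 males have the most muscle transcripts and the highest Pfkm, at 65.7 and 93.0 CPM.

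The genes whose pattern was most like each member were found among 9939 genes by the root mean square (RMS) difference of log2 CPM over the 10 libraries, each gene taken relative to its own mean. For Pfkl these were Kcnk3 (RMS 0.191), Ppic (0.193) and Mpc2 (0.197), against an RMS of 0.686 of Pfkl about its own mean. Mpc2, a subunit of the mitochondrial pyruvate carrier, averaged 305 CPM in sons of CD fathers, 201 CPM in pLPD offspring and 110 and 109 CPM in CD-fed and LPD-fed F0 males. For Pfkm the nearest were Srl (0.123) and Des (0.131), both genes of striated muscle, and Pde4dip (0.170), against its own 0.436. For Pfkfb3 they were Prkar2b (0.122), a regulatory subunit of protein kinase A, Acsl1 (0.128), an acyl-CoA synthetase, and Pde3b (0.134), the phosphodiesterase of adipocytes, against its own 0.307. The nearest to Pfkp were Eng, Dcaf6 and Atp6v0b, to Pfkfb1 Ebf2, Nfkbia and Accs, to Pfkfb2 Ssh1, Rala and Sdccag3, and to Pfkfb4 Prkrip1, Ppp1cc and D5Ertd579e. The 10 libraries fall into 4 groups, so likeness over them is mostly likeness of group means and is given as a description.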

How the data were processed

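RNA-seq libraries of iWAT (10 in all, with rRNA depleted and a strand-specific kit) were mapped by the authors with CLC Genomics Workbench to the mm10 genome. Counts were deposited as reads per gene, on exons and on introns apart, without normalization. RPKM was deposited too, and there the authors had scaled exon reads to exon length and library total. Whether CLC counted by strand is not given in the sources used here, so reads of Pfkm, Pfkp, Pfkfb1, Pfkfb2 and Pfkfb3 and of the opposite-strand genes that overlap them may be shared.

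Exon and intron counts were each tested in R 4.3.3 with edgeR 4.0.16 (filterByExpr, TMM, quasi-likelihood F test, two-sided, Benjamini-Hochberg over all genes tested, threshold 0.05), each generation alone. The interaction and the CD comparison used all 10 libraries. Exon against intron change was tested in 1 fit with a term for each mouse. The SE is the log2 fold change divided by the square root of F. Shares were compared by exact permutation tests. The scripts were tested on simulated data. Replicates are separate mice, and between 2 of 1 group the variance was 4.59 to 13.1 times counting error.

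All 7 genes were named by rule. For likeness, genes needed a mean of 10 CPM, and 0.5 was added before log2. The genes, lists and markers were chosen with earlier results of these data known. Alternatives were DESeq2 1.42.0, DESeq2 size factors, other filters, unique reads, exon and intron reads together, limma 3.58.1 on log2(RPKM + 0.1) or + 1, the replicate block, the intron share as a covariate, shares without division by exon length and each library left out.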

Additional observations from a re-analysis of the deposited data

Results flagged for a closer look

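The effect of the diet on Pfkl exon reads differed between the generations, by −1.20 on the log2 scale (F1 minus F0, SE 0.19, edgeR adjusted p = 0.0141), with all 3 pLPD offspring below the offspring of CD fathers and both LPD-fed F0 males above the CD-fed ones. Generation and age cannot be told apart, and the diet was eaten by the mouse itself in F0 and by the father in F1.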

How the results depend on the processing

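The log2 fold change of Pfkl in F1 lay between −1.08 and −0.73 under 12 alternatives, all past the threshold. The −1.08 was that with the intron share as covariate, which was separate between the F1 groups. With 1 library left out Pfkl in F1 lay between −0.89 and −0.65. Its difference between generations lay between −1.58 and −1.11 under 11 alternatives and between −1.35 and −1.08 with 1 library left out, and its difference between generations on the CD stayed past the threshold throughout. The replicate numbers were not taken to pair the mice. Correlations of same-numbered libraries were 0.0718, 0.001 and 0.0175 in F1, and those of other pairs lay between −0.0854 and 0.0673. These values cannot tell whether mice shared a litter or handling. With 2 mice a group, every F0 correlation has the same size (0.0599), so F0 holds no information on this. With the replicate block, Pfkl in F1 was at −0.75 (edgeR adjusted p = 0.00992). In F0, 5 of the 7 genes passed with the block against none without it. That fit had hardly any spread left, and 1391 of 14581 genes passed in it. The block could not be fitted for the generations on the CD, and the shares were compared without pairs; exon against intron reads were already paired by mouse. Without the filter on low counts 2 of the 7 passed in F1 (Pfkl and Pfkfb3), where 798 of 22256 genes did. In F0 5 of the 7 passed without it, where 1343 of 22064 genes did, and DESeq2 called 1 of the 7. With limma on RPKM without a filter 2 of the 7 passed between generations, where 1608 of 23517 genes did. Pfkp lost its call between generations on every RPKM scale. Without division by exon length, the share differences in F1 went from 4.23 to 2.21 points for Pfkm and from 2.24 to 5.21 for Pfkp, and in F0 from −0.29 to −2.29 for Pfkp, from −2.83 to −1.79 for Pfkfb4 and from 8.45 to 5.57 for Pfkfb3. On unique reads that of Pfkfb2 in F1 went from −1.19 to −0.44. With 1 library left out, 0 to 2 genes passed in F1, 0 to 2 in F0, 0 to 1 for the interaction, 2 to 4 between generations, 0 to 2 on introns in F0 and 1 to 2 for exon against intron in F0, where a lone library was assumed to vary like the other group.

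Of 756 log2 values of single genes under the alternatives, 709 kept their direction. The other 47 had a value of at most 0.31 in size in the test as reported and an adjusted p of 0.700 or more under the alternative. Among values printed in the text, Pfkfb4 in F1 turned to −0.085 with intron reads added, to −0.13 on log2(RPKM + 0.1) with or without the filter and to −0.088 on log2(RPKM + 1), and Pfkfb1 turned to −0.030 and −0.024 on these scales. Pfkfb2 in F0 turned to −0.061 on unique reads. The interaction of Pfkfb3 turned to −0.069 with intron reads added, −0.020 and −0.023 on the RPKM scales and −0.14 with the intron share as covariate, an alternative chosen after seeing the data, as were unique intron reads. Pfkfb4 between generations turned to −0.090 and −0.069 on log2(RPKM + 0.1) and log2(RPKM + 1). Among the same values, ranges with 1 library left out that crossed 0 were −0.095 to 0.16 for Pfkfb4 in F1, −0.20 to 0.068 for Pfkp in F0, −0.16 to 0.27 for the interaction of Pfkfb3, −0.12 to 0.18 for Pfkfb4 between generations and −1.71 to 1.12 points for the share of Pfkp in F0. Over all genes, with every library in the fit, calls ranged from 11 to 798 in F1 (164 as reported), from 1 to 1391 in F0 (364), from 45 to 890 for the interaction (189), from 1608 to 3415 between generations (2857), from 57 to 677 and 345 to 1106 on introns in F1 (57) and F0 (499), and from 15 to 105 for exon against intron in F1 (14). With 1 library left out they ranged from 18 to 510, 107 to 475, 19 to 395, 793 to 3030, 5 to 190, 289 to 964 and 7 to 92, in the same order. The median log2 fold change of all genes on log2(RPKM + 0.1) was −0.15 in F1 and −0.12 between generations, against 0.007 and 0.008 as reported. The part of this shift in the values that turned was not tested, nor were other causes. Groups of 2 or 3 mice limit what can be called.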

Other observations

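Intron reads of Pfkfb4 also took opposite orders in the 2 generations, with every pLPD offspring below the offspring of CD fathers and both LPD-fed F0 males above the CD-fed ones. The difference was −0.40 log2 units (exact permutation p = 0.0167, the smallest of the 7 genes, and 0.117 adjusted over them), and it did not pass. That p is the smallest the 120 arrangements can give. The permutation takes the diet to have no effect in either generation, so it does not test whether the effects are equal.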
